A study of Mus musculus with 35 samples.

Results

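DNA topoisomerases are enzymes that cut DNA, let strands pass or rotate, and seal the cut, and so remove the supercoils and tangles that transcription and replication leave. Type II enzymes cut both strands and pass a duplex through the gap, type IB enzymes nick a single strand and let it rotate, and type IA enzymes pass one strand through another. The mouse genes examined were the 6 listed ones: Top2a and Top2b (type II), Top1 and the mitochondrial Top1mt (type IB), and Top3a and Top3b (type IA). They are 6 of 49943 genes that the RefSeq table places on chromosomes 1 to 19, X and Y (GRCm38.p6, which is mm10). Membership was set by name, and a peak was counted for a member when its summit lay inside the gene or within 10 kb of it.

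NELFA belongs to NELF, the negative elongation factor, which holds RNA polymerase II shortly downstream of start sites. The cells were E14 mouse embryonic stem cells with a doxycycline-inducible NELFA transgene, which the design text gives as carrying a StrepHA tag with P2A-EGFP, grown in 2i medium with 0.4 µg/ml of doxycycline for 16 h. All 7 ChIP-seq libraries came from such induced cells: 3 precipitated with HAantibody1, 1 with HAantibody2 and 3 inputs, from 3 replicates. There was no uninduced or untagged ChIP library, so NELFA signal cannot be told apart from other signal of the HA antibodies. A peak list measures no transcripts, and the 8 ATAC-seq and 20 RNA-seq libraries are not used here, so no topoisomerase expression and no marker check of the cell type is given.

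The measurements were read from 1 deposited list of 59485 peaks for all these libraries. Each peak has a fold enrichment, which is a linear ratio, and the −log10 of its q-value, both as the authors' peak caller gave them. The list has no value per library and no read depth, so the values below have no replicate error, and no difference between genes could be tested against one.

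Of the 6 topoisomerase genes, Top2a had 1 peak just downstream of its start site and Top1 had 2 peaks about 8 kb upstream of its start. Top2b, Top1mt, Top3a and Top3b had none inside the gene or within 10 kb. A member peak was thus present at 2 of 6 genes, where 42.6% of all 21887 protein-coding genes had a summit in such a window (46.7% of the 6281 that are as long as the members). Within 1 kb of a gene boundary the count was 1 of 6, against 18.8% of protein-coding genes (22.7% of those as long as the members). No test was made over 6 genes.

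The promoters of Top2a, its paralogue Top2b and Top1 are shown because they contrast a start site with a peak, a paralogue without one, and a gene whose peaks lie far upstream. Each window runs from 250 bases before to 50 bases after the start site, 5′ to 3′ on the gene's own strand, from RefSeq on GRCm38.p6, and 4 of the 6 members matched an entry. Capitals mark CCAAT boxes, the recognition sequence of the transcription factor NF-Y, read as CCAAT or, on the other strand, ATTGG. Top2a is chr11:99024140-99024439 on the minus strand, Top2b is chr14:16364956-16365255 on the plus strand, and Top1 is chr2:160645647-160645946 on the plus strand.
Top2a: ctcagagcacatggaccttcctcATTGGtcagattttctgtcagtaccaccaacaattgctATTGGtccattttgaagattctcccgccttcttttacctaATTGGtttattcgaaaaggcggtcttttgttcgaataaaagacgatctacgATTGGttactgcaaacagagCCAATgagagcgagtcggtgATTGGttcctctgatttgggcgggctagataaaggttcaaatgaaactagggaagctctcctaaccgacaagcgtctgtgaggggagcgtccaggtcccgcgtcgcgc
Top2b: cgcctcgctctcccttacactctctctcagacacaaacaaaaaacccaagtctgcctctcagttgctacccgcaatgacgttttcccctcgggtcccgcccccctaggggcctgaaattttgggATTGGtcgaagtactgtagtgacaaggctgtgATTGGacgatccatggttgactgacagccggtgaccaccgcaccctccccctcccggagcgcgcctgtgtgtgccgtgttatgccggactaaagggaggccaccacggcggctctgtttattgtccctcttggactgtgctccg
Top1: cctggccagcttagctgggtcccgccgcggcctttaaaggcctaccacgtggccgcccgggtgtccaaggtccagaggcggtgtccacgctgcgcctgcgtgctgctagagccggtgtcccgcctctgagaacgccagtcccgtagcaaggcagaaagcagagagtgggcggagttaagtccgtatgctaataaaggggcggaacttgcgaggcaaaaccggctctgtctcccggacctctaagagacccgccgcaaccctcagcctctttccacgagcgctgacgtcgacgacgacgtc

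The Top2a promoter held 6 CCAAT boxes and the Top2b promoter 2, while the Top1 promoter held 0 and that of Top3b 1. At least 1 such box was present in 38.2% of 21263 protein-coding promoter windows of this length, and 6 or more in 20 of them (0.0941%). In Top2a the boxes began 227, 189, 149, 98, 78 and 58 bases upstream of the start, and all but the one at 78 were in the ATTGG orientation. In Top2b they began 126 and 94 bases upstream, both as ATTGG. All 6 boxes of Top2a lay upstream of its start site and the peak lay downstream of it, so none of them was under the peak. The part of the peak more than 50 bases downstream is outside the window and was not searched.

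Other short motifs, searched on both strands, also divided the promoters. TTTGAA, a form of the cell cycle genes homology region found in promoters of genes expressed late in the cell cycle, occurred 2 times in Top2a, with first bases 179 and 23 upstream, and 0 times in Top2b, Top1 and Top3b (16.0% of promoters hold it). GGGCGG, the GC box, occurred 3 times in Top1, 1 time each in Top2a and Top2b and 0 times in Top3b (46.2% of promoters). The E-box CACGTG was present once in the Top1 window and was not found in the other 3 windows (7.84%), and TGACGT, part of the cyclic AMP response element, was present once in Top1 and once in Top2b (8.49%). TATAAA was in none of the 4 (12.6%). A match describes the letters of the window and not the binding of a factor.

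Base composition also varied. GC content was 64.0% in the Top1 window, 58.3% in Top2b, 47.7% in Top2a and 45.7% in Top3b, where the median over protein-coding promoters was 56.3%. CG dinucleotides numbered 29 in Top1, 18 in Top2b, 16 in Top2a and 11 in Top3b. The start site with a peak therefore had neither the most nor the fewest CG dinucleotides of the 4.

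**Figure D1:**
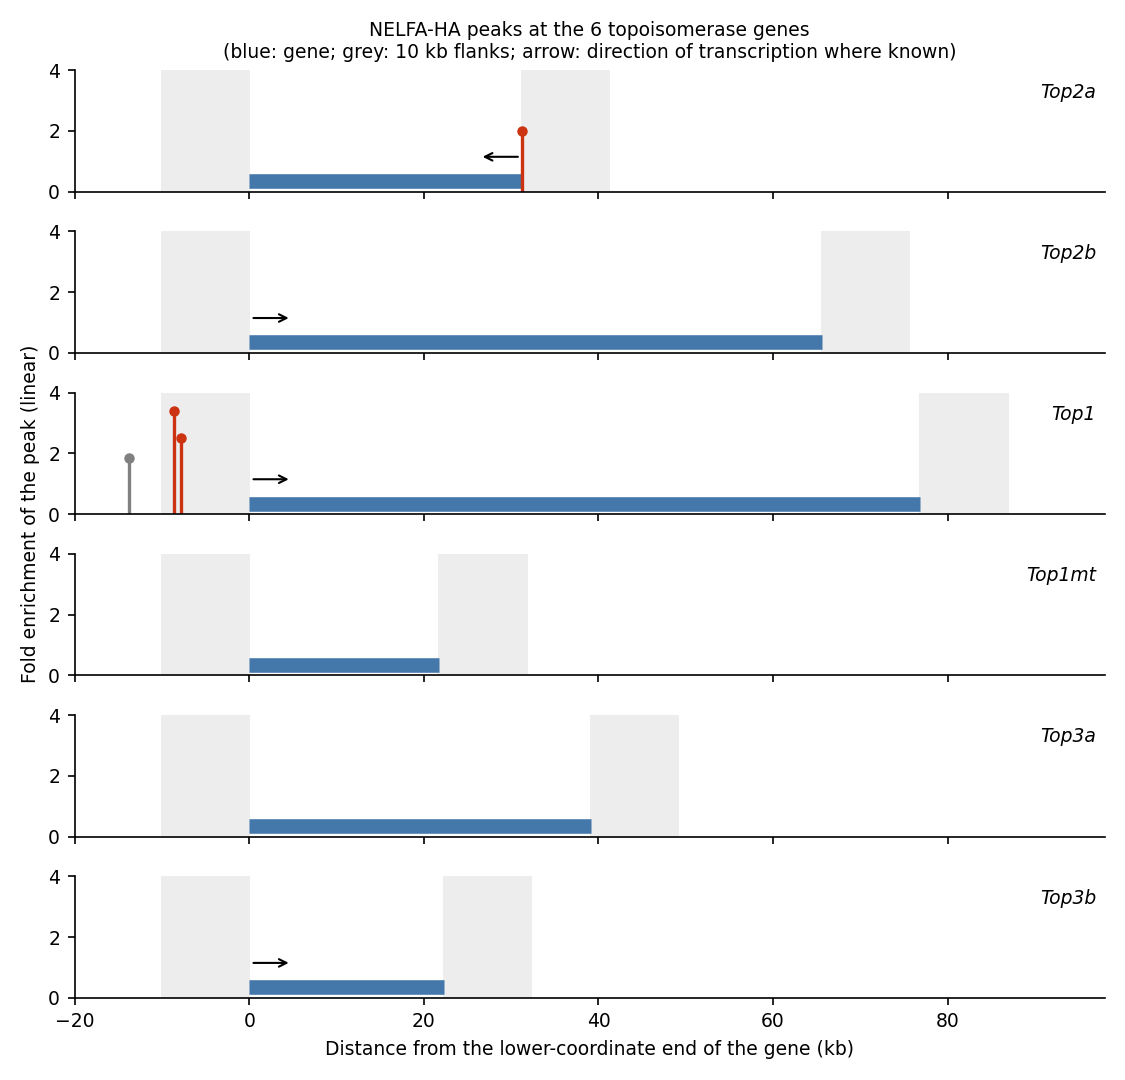
Each row is 1 topoisomerase gene (blue bar), drawn from its lower-coordinate end in kb, with its 10 kb flanks in grey and, where known, the direction of transcription as an arrow. Stems give the linear fold enrichment of peaks (red, counted; grey, outside the 10 kb window): 1 peak sits at the start of Top2a, 2 lie upstream of Top1, and the other 4 genes have none.

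Top2a encodes the type II enzyme of dividing cells, which separates sister chromatids and is a core part of mitotic chromosomes. The gene (GeneID 21973) lies at chr11:98992947-99024199 and is transcribed from the higher-coordinate end. Its peak covered chr11:99024064-99024186, 123 bp, with a fold enrichment of 2.0 and a −log10 q of 2.69. The summit, at 99024148, lay 41 bp downstream of the start site that the promoter table gives (99024189) and 51 bp inside the gene's boundary. The whole interval lay on the transcribed side, from 3 to 125 bp downstream of that start site. No other annotated gene had a boundary within 1 kb of this summit. Outside the gene, the nearest summits were 183 kb below its lower-coordinate end and 91.2 kb above its higher-coordinate end. The neighbours Gjd3, a gap junction gene, and Igfbp4, an insulin-like growth factor binding protein gene, had no peak inside or at a boundary.

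The position of the Top2a summit was a frequent one among genes. Of 17492 protein-coding genes with a known strand, 18.6% had a summit within 1 kb of a start site. Among the 3182 summits within 500 bp of such a start, the median position was 76 bp downstream, with quartiles 18 bp upstream and 153 bp downstream, and 72.6% lay downstream. The first 100 bases downstream held 32.2% of them, or 102.5 summits per 10 bp, against 28.3 per 10 bp in the 100 bases just upstream. The Top2a summit falls in that first interval.

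**Figure D2:**
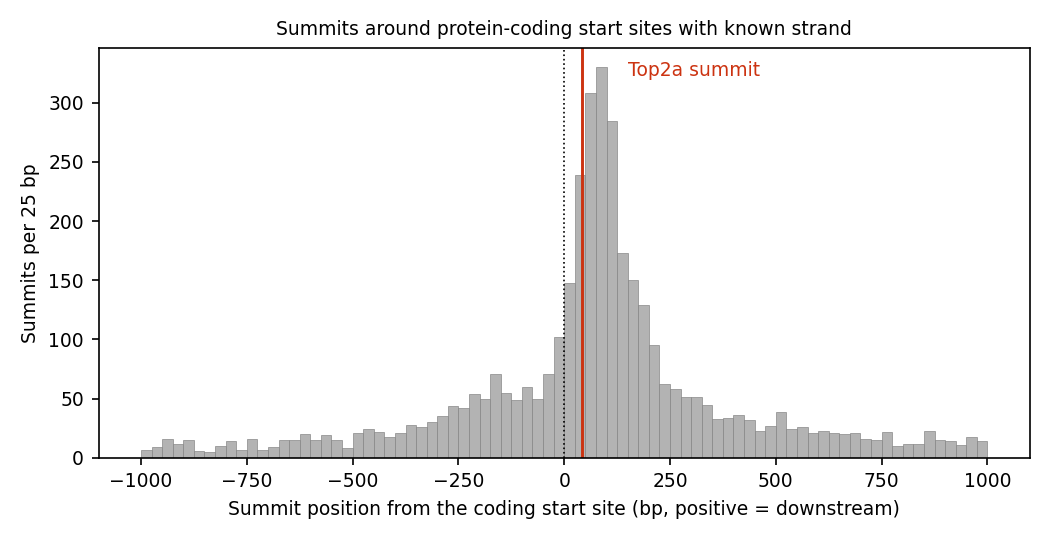
Summits of the whole list are counted in 25 bp bins by their position from the nearest protein-coding start site with known strand (x axis in bp, positive downstream). The red line marks the Top2a summit, 41 bp downstream, on the rising side of the maximum that lies within the first 125 bp.

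The Top2a peak was weak within the list. Its fold was below the list median of 2.09: 35976 peaks (60.5%) were stronger, 4253 had this same value and 19256 (32.4%) were weaker. Fold values in this list are stepped: 96.3% of all peaks had a fold under 5 that was a whole multiple of 0.0454, within 0.02 of a step. Top2a stood at step 44, and step 39 was the lowest used by 100 or more peaks. Among the 3260 protein-coding genes with a peak within 1 kb of a start site, the strongest such peak had a median fold of 2.22 (quartiles 2.0 and 2.72), and 26.4% of these genes were at or below Top2a. Without peaks under the median fold 0 of 6 members had a boundary peak, against 12.4% of protein-coding genes, and without peaks of −log10 q below 4 again 0 of 6, against 9.81%.

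Top2b encodes the second type II enzyme, which is also present in cells that no longer divide and acts at promoters and loop anchors. The gene (GeneID 21974, chr14:16365206-16430787) had no summit inside it. The nearest summits were 116 kb below and 60.0 kb above it. Its higher-coordinate end lies 52 bp from Rarb, a retinoic acid receptor gene, which had 6 summits in its interior and none within 1 kb of a boundary. On the other side the nearest gene was Ngly1, 53.3 kb away, which encodes a deglycosylating enzyme and had 1 boundary peak. Both paralogues of the type II family were thus in the table with a start site, and a summit was listed near that of Top2a and not near that of Top2b. With no value per library, this difference could not be tested.

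Top1 encodes the nuclear type IB enzyme, which relaxes supercoils around moving polymerases. The gene (GeneID 21969, chr2:160645897-160722764) had no summit inside it or within 1 kb of a boundary. Its first upstream peak covered chr2:160636886-160637475, 590 bp, with a fold of 3.40 and a −log10 q of 16.2, and its summit lay 8630 bp upstream of the start site. The next covered chr2:160637907-160638216, 310 bp, with a fold of 2.50 and a −log10 q of 6.61, and its summit lay 7841 bp upstream. These were the strongest peaks at any of the 6 genes: 9.62% of the list was stronger than the first and 24.8% stronger than the second.

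The 2 Top1 summits were 789 bp apart and their intervals were separated by 431 bp. A weaker peak, just outside the 10 kb window, lay 13.7 kb upstream at chr2:160632106-160632217 with a fold of 1.86 and a −log10 q of 1.83. These 3 were the only peaks within 500 kb of the gene's midpoint. The next summit on that side was 707 kb from the gene, and the nearest on the other side was 647 kb away. All 3 lay between genes. The nearest annotated gene on that side was the lncRNA LOC115489488, whose near end was 25.8 kb from Top1. A summit 5 to 10 kb upstream of a start site was present at 9.74% of protein-coding genes with known strand, and 2 or more such summits at 3.33%. Plcg1, the phospholipase C gene 8.55 kb beyond the other end of Top1, had no peak.

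**Figure D3:**
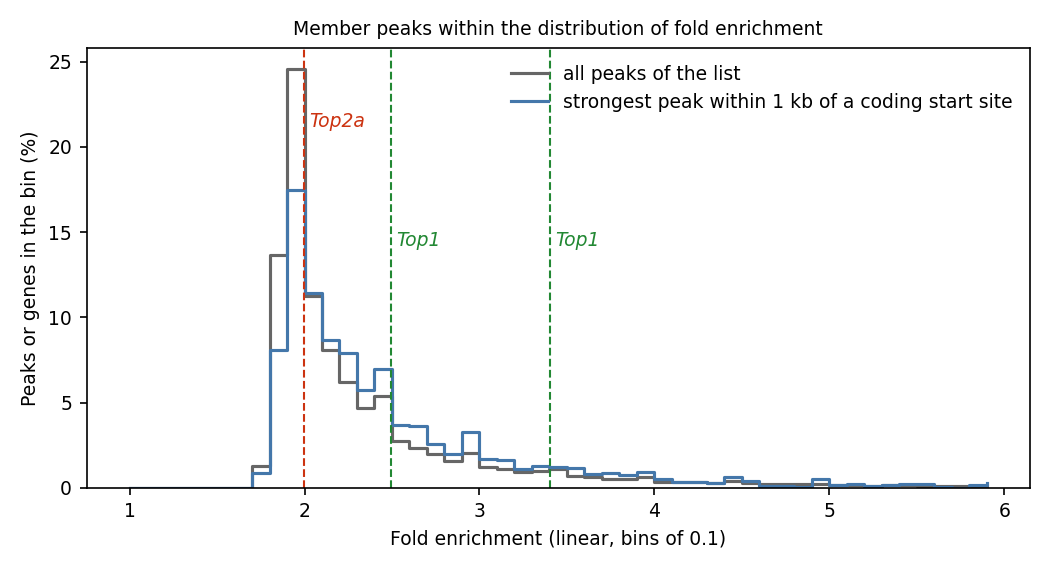
The grey line gives the percentage of all listed peaks in bins of 0.1 of linear fold enrichment, and the blue line the percentage of genes by their strongest peak within 1 kb of a protein-coding start site; values above 6 are not drawn. Dashed lines mark the member peaks: Top2a at 2.0 in the most populated bins, and the Top1 upstream peaks at 2.50 and 3.40 in the upper part.

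Top1mt encodes the mitochondrial type IB enzyme. The gene (GeneID 72960, chr15:75657033-75678800) had no summit closer than 69.4 kb, and its neighbours Zfp41 and Rhpn1 had no peak either. Top3a encodes a type IA enzyme that works with the BLM helicase to separate joined DNA molecules, in the nucleus and in mitochondria. The gene (GeneID 21975, chr11:60738209-60777365) had its nearest summit 37.3 kb away. Its higher-coordinate end is 160 bp from Smcr8, an autophagy gene, and neither gene had a peak at this close pair of ends. Top3b encodes the type IA enzyme that also acts on RNA. The gene (GeneID 21976, chr16:16870722-16892986) had its nearest summit 42.1 kb away, beyond the phosphatase gene Ppm1f, and none lay at Ppm1f or at Vpreb1 on the other side.

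The 4 genes without a peak had their nearest summits at distances inside the middle range for such genes. These ranged from 37.3 kb at Top3a to 69.4 kb at Top1mt, where the 12558 protein-coding genes with no summit in the 10 kb window had a median of 54.3 kb (quartiles 27.3 and 107 kb). The surroundings held 3 peaks within 500 kb of the midpoint of Top1, 5 at Top2b, 14 at Top2a, 15 at Top1mt, and 17 at each of Top3a and Top3b, where the median over protein-coding genes was 14 (quartiles 8 and 24). Of the 12507 protein-coding genes with 3 to 17 peaks in that span, 34.4% had a summit inside or within 10 kb and 12.7% had one within 1 kb of a boundary.

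Genes whose products work with topoisomerases were examined in the same way, in lists set by function. A boundary peak was listed at 13 of 35 of these genes (37.1%), beside 18.8% of protein-coding genes and 1 of 6 topoisomerase genes. Their median boundary fold was 2.50, against 2.0 at Top2a and 2.22 over all 4121 protein-coding genes with such a peak. The lists are small and were chosen with earlier results of these data known. Their members were not matched to other genes by length, and they were not tested against other genes.

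Partners of topoisomerases had a boundary peak in 4 of 7 cases (57.1%, beside 18.8% of protein-coding genes), and in 2 of 7 at a −log10 q of at least 4, where the share over protein-coding genes was 9.81%. Rmi1, whose product forms a complex with TOP3A and BLM, had a fold of 4.08, the highest of the 35 genes. Its summit lay 203 bp inside the gene's boundary but 146 bp upstream of the nearest listed start site. Topors, whose product is a ubiquitin and SUMO ligase that binds TOP1, had a fold of 3.22, and Tdrd3, whose product joins TOP3B to FMRP, had 2.13. Blm, Fmr1 and Rmi2 had no boundary peak. Top3a itself thus lacked a peak while 1 of its 3 partners listed here, Rmi1, had one. Top3b also lacked a peak, Tdrd3 had one with a −log10 q of 3.64, and Fmr1 had none.

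Genes for the repair of trapped topoisomerases had a boundary peak in 2 of 10 cases, near the 18.8% of protein-coding genes. Sprtn, a protease for proteins crosslinked to DNA, had a summit 55 bp outside the gene with a fold of 3.31, in a 1 Mb window with 130 peaks. Tdp2, which releases TOP2 from DNA ends, had 2.54 with its summit 49 bp inside the gene. Mre11a and Nbn were among the 8 without. Of the meiotic relatives, Spo11, whose product makes the breaks of meiosis, had no boundary peak. Its partner Top6bl, matched by its synonym to Gm960, had one of fold 2.45, which lay 176 bp beyond the end of the gene and far from the listed start site.

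Condensin, which shapes mitotic chromosomes together with TOP2A, had boundary peaks at 3 of 8 genes (37.5%, beside 18.8%), all below the list's median fold. Ncapd2 had a fold of 2.0, the same as Top2a, in a 1 Mb window with 117 peaks, and Ncapg and Smc4 had 1.86 each. Ncapd3, Ncapg2 and Ncaph were among the 5 without. In the list of cohesin and CTCF, which are found with TOP2B at loop anchors, Ctcf had a fold of 3.99 in a 1 Mb window with 128 peaks, and it was the 1 of 6 with a boundary peak (16.7%, near the 18.8% of protein-coding genes). Rad21 and Smc1a had 1 interior peak each, and Smc3 had none. Smc6 (3.68) and Smc5 (2.50), which encode the core of the related complex, both had one. Of the 11 related genes with both a boundary peak and a start site in the promoter table, 9 had the summit within 1 kb of that start site. Other genes with a boundary near the peaks of the related genes are not listed here, so a peak may be shared with a neighbour.

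**Figure D4:**
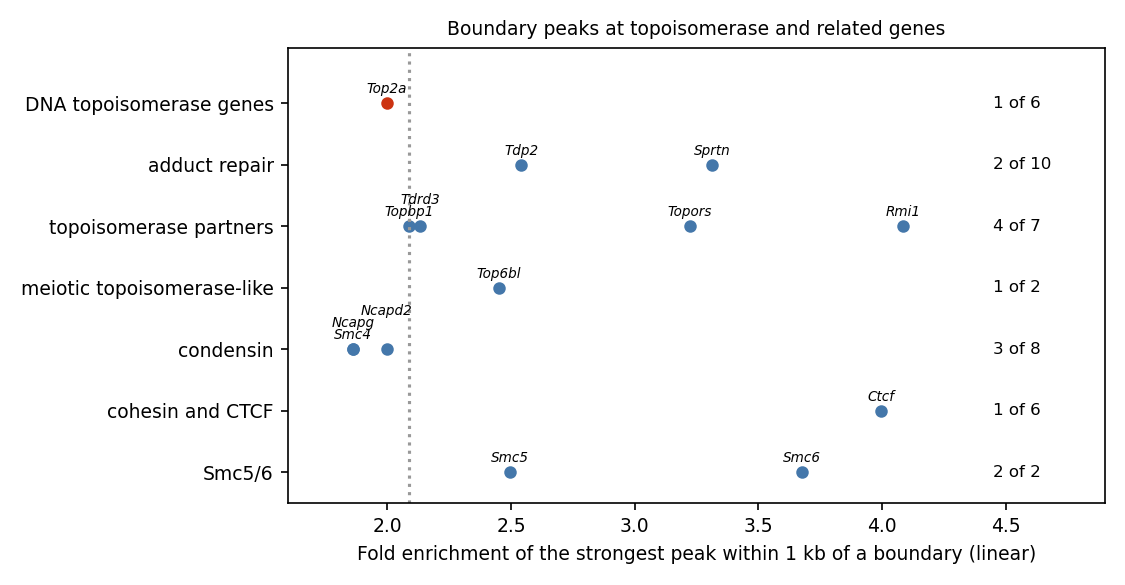
Each point is the strongest peak within 1 kb of a boundary of 1 gene, by linear fold enrichment, with the number of genes that have one at the right and the list median of 2.09 as a dotted line. Top2a (red) and the condensin genes lie below the median, and Rmi1, Ctcf and Smc6 are the strongest of the related genes.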

How the data were processed

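The 4 HA-immunoprecipitated and 3 input ChIP-seq libraries are represented by 1 deposited peak list. The submitters' processing notes name mm10 as the build and, as tools, MACS2, Bowtie2 2.2.9, Trim Galore 0.4.2 and SAMtools 1.4. For call settings, the pooling of libraries and multi-mapping reads, details are not given in the sources used. The authors' fold enrichment is a linear ratio per peak, and the deposited q-value column is on the −log10 scale, with 1.31 as its lowest entry.

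Summits were the deposited start plus offset, printed 1-based. Gene positions, without exons, came from RefSeq GRCm38.p6, and strand, start sites and sequences from the RefSeq promoter table of that build, which held 17492 protein-coding genes. A boundary peak is a summit within 1 kb of either gene end. Counts were read beside the share over all protein-coding genes, with no test. The depth is unknown. The members, lists and motifs were chosen with earlier results of these data, or the sequences, known. Named were all members, genes sharing a member's peak, and per list up to 3 genes with the highest boundary fold and up to 3 without one in alphabetical order. Neighbouring genes were added afterwards, and some items are not reported here. The count of boundary peaks was tested on simulated data, and the other counts were not. The work used Python 3.11.15, numpy 2.4.6 and pandas 2.3.3. Figures used matplotlib 3.10.9. Alternatives were other windows, peak strength limits and interval overlap.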

Additional observations from a re-analysis of the deposited data

How the results depend on the processing

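The count of 3 member peaks became 1 (Top2a) with a window of 5 kb or the gene body only, since the Top1 peaks lie upstream. For the gene body, 29.4% of protein-coding genes had a summit inside. The count of member peaks was 4 with a 20 kb window and 3 with interval overlap. It was 2 at or above the median fold and 2 at a −log10 q of at least 4. Under both strength limits the Top2a peak was lost and only the Top1 peaks remained. Apart from the gene body, no share over protein-coding genes is given for these versions of the count, so they are not set against other genes. The count of 1 member with a boundary peak became 0 at or above the median fold, where 12.4% of protein-coding genes kept one, and 0 at a −log10 q of at least 4, where 9.81% did. It was 1 with windows of 500 bp and 2 kb, with interval overlap, and with a 100 bp window chosen after seeing the data. No share over protein-coding genes is given at these settings, so the unchanged count is not set against other genes. With start sites only it was 1 of the 4 members with known strand, beside 18.6% of protein-coding genes with known strand. The 13 related genes became 8 at a −log10 q of at least 4, where 9.81% of protein-coding genes had a boundary peak. Among single lists, condensin went from 3 to 0 at that limit and at or above the median fold. The partners went from 4 to 2 at that limit. Cohesin and CTCF went from 1 to 2 with a 2 kb window. No share over protein-coding genes is given for that window, so this rise is not set against other genes. No paired analysis was possible because the list carries no value per library, and no library could be left out for the same reason. Depth is unknown, so a gene with no listed peak may hold signal below the list's limit.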

Other observations

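The CCAAT-rich promoter of Top2a was set beside others of its kind, a group chosen after the sequences were seen. Of 69 protein-coding promoter windows with 5 or more CCAAT boxes, 20 (29.0%) had a summit within 1 kb of the start site, where 3793 of all 21263 windows (17.8%) and 2421 of the 13142 with 0 boxes (18.4%) did. Top2a, whose sequence prompted the group, is itself counted in it and among those with a summit. The share was 15.7% with 1 box, 17.5% with 2, 22.2% with 3 and 24.9% with 4. The differences were not tested, and some of these windows share a peak or a gene.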
